A study of Mus musculus with 16 samples.

Results

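Type I interferon stimulated genes were followed across tumor-infiltrating lymphocytes (TILs) of 2 genotypes and 2 T cell types. The set held 44 genes, chosen by name as genes known to be induced by type I interferon, and all 44 were found by their symbol among the 55450 genes of the deposited count table. The cells were CD4+ and CD8+ TILs from subcutaneous tumors of B16F10, a mouse melanoma line implanted into the animals, in wild-type (WT) C57BL/6J mice and in Sirt2-/- mice (B6.129-Sirt2tm1.1Fwa/J), which lack the deacetylase SIRT2 in all cells of the body rather than in T cells alone. Mice were 7 to 8 weeks old, of both sexes and matched for age and sex between genotypes, and the labels name no further treatment. Each of the 4 groups, CD4+ WT, CD4+ Sirt2-/-, CD8+ WT and CD8+ Sirt2-/-, held 4 libraries, 16 in all. The series asked how SIRT2 deficiency alters pathways downstream of the T cell receptor in TILs, and the comparison between genotypes within a cell type addresses that question.

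Type I interferons, the IFN-α family and IFN-β, bind the receptor formed by IFNAR1 and IFNAR2, and the kinases JAK1 and TYK2 then phosphorylate STAT proteins, among them STAT2. STAT2 and IRF9 are subunits of the complex ISGF3, which binds interferon-stimulated response elements in the promoters of its target genes. The products degrade or sequester viral RNA, sense foreign nucleic acid, attach the ubiquitin-like protein ISG15 to other proteins, and include IRF7, STAT2 and IRF9 themselves, so that the response feeds back on its own components. In tumors the response has been described in T cells, dendritic cells, macrophages and tumor cells. Several of these genes, such as Irf1, also respond to IFN-γ.

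The genes lie on 16 chromosomes, with 5 Ifit genes together on chromosome 19, 5 Oas and Oasl genes on chromosome 5 and 6 genes, Mx1, Mx2, Parp9, Dtx3l, Parp14 and Rtp4, on chromosome 16. A promoter sequence from 250 bases before to 50 bases after the start was matched in RefSeq (GRCm38.p6) for 31 of the 44. Some genes had more than 1 such promoter, and a gene was counted where any of its promoters held a pattern. The core of the interferon-stimulated response element was searched on both strands as GAAA, any 2 bases and a second GAAA. It was found for 14 of the 31 genes (45.2%), against 3.99% of the 27025 genes with a promoter there. A second pattern, TTCNNNGAA, to which STAT dimers bind and which does not contain the first, was found for 7 of the 31 (22.6%), against 9.55% of all genes with a promoter there. The 4 promoters printed here were chosen because they hold at least 2 matches each and because their genes, which encode ISG15 and the RNA-binding IFIT proteins, recur in the comparisons that follow. Each is written 5′ to 3′ on the strand of its gene, and capitals mark this pair of GAAA or, where the match is on the other strand, its reverse complement.
Isg15 (chr4:156200769-156201068, minus strand): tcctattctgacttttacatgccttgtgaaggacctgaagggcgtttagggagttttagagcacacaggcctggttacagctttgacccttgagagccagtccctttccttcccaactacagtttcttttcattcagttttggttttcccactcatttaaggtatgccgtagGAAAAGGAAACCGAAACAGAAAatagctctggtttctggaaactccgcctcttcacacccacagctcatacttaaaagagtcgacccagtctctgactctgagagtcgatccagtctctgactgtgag
Ifit1 (chr19:34640639-34640938, plus strand): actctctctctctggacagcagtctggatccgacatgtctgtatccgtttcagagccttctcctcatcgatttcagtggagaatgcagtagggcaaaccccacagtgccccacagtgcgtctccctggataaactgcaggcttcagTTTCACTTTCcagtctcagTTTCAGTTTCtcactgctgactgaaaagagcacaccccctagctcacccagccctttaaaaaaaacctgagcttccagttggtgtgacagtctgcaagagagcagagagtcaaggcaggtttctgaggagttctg
Ifit3 (chr19:34583279-34583578, plus strand): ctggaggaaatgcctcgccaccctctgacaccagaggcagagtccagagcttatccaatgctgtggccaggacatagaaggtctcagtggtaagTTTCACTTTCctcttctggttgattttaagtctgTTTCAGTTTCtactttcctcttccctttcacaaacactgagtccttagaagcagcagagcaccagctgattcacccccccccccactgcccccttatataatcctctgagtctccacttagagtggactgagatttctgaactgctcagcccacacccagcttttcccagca
Ifit3b (chr19:34607707-34608006, plus strand): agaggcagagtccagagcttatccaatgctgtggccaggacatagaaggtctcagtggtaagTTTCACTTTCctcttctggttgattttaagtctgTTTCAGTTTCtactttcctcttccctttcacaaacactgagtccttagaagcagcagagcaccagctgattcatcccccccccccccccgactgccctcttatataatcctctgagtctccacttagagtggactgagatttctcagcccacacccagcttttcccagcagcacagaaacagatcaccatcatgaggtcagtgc
In Isg15 the first bases of 3 overlapping matches lay 66, 72 and 78 bases before the start, in 1 unbroken block of capitals. In Ifit1 they lay 85 and 104 bases before it, in Ifit3 122 and 156, and in Ifit3b 154 and 188. A match describes letters in this window and was not tested as a binding site.

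Levels were expressed as CPM, the counts of a gene relative to the total of its library, scaled by the trimmed mean of M values (TMM), a correction for library composition. Total counts per library ran from 28000949 to 62407851, and the number of genes with at least 1 count separated 3 libraries from the rest. CD4+ Sirt2-/- replicate 4 had 8169 genes, CD4+ WT replicate 1 had 12587 and CD8+ WT replicate 1 had 14411, whereas the other 13 libraries had 17730 to 22138, so values are also given without these 3. The number per group in the study's methods matches that of the libraries, although no label ties a library to a mouse, and p-values measure the spread between these libraries. Sirt2, the deleted gene, had 6.52 to 10.3 CPM in CD8+ Sirt2-/- and 33.4 to 51.5 CPM in CD8+ WT TILs (log2 fold change −2.22 ± 0.21, SE; edgeR adjusted p = 0.0066). In CD4+ TILs it had 0 to 12.2 CPM in Sirt2-/- and 40.7 to 75.6 CPM in WT libraries, a difference that did not pass the test (−2.60 ± 1.26; edgeR adjusted p = 1.0). Cd4 reached 384 to 620 CPM in CD4+ libraries and at most 4.93 CPM in CD8+ ones, and Cd8a and Cd8b1 together 1462 to 2046 CPM in CD8+ and 14.04 to 74.9 CPM in CD4+ libraries, so no library went against its cell type label.

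Transcripts of the set were present in every group, also in WT TILs, and all 44 genes passed the filter on low counts in each comparison. In 23 of the 44 genes all 16 libraries had at least 10 CPM, among them the RNA-binding Ifit1 and Ifit2, the kinase gene Eif2ak2, the transcription factor genes Irf1, Irf9 and Stat2, the sensor genes Ifih1, Ddx58 and Zbp1, and Parp9, Dtx3l and Parp14. Over the 13 libraries with more genes detected, 38 of the 44 reached that level, and Oas2, Oasl1, Mx2, Isg15, Ube2l6 and Ifi44 did not. No gene was below 1 CPM in 8 or more libraries. A library with 0 counts occurred for 7 genes, each time in 1 of the 3 libraries with few genes detected: Ifit3b, Oasl1 and Mx2 in CD4+ WT replicate 1, Oas2, Isg15 and Ifi27 in CD4+ Sirt2-/- replicate 4, and Ifi44 in CD8+ WT replicate 1.

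Genes were set against each other by RPKM, which divides CPM by the exonic length of a gene in kilobases, since a long transcript yields more reads. By the median RPKM over 16 libraries Ifi27l2a, which encodes a small interferon-inducible membrane protein, stood first at 277, followed by Epsti1 at 131, Ifit3 at 120.3, Ly6e, a GPI-anchored surface protein, at 116, and Dtx3l, a ubiquitin ligase, at 92.2. Isg15 itself stood at 18.7 RPKM and Ifit1 at 56.0 RPKM. The lowest 4 were Oas2 at 4.11, Oasl1 at 3.57, Mx2 at 2.93 and Ifi44 at 1.30 RPKM. The ranges of neighboring genes overlapped in this order.

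**Figure D1:**
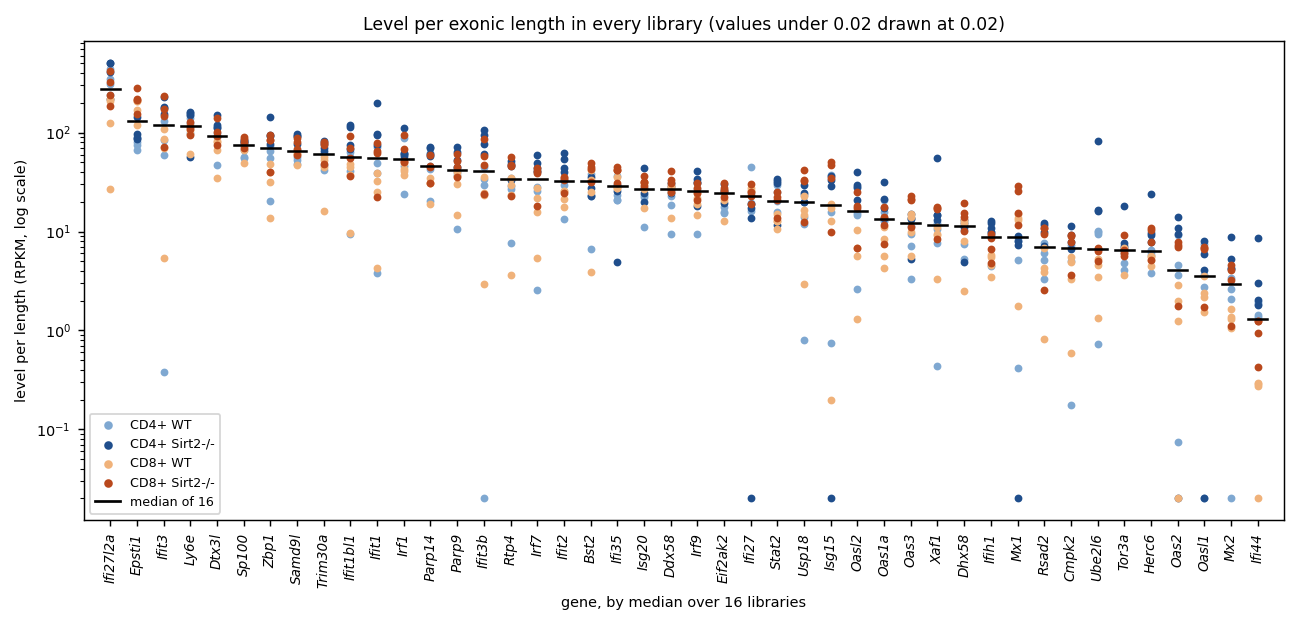
Level of each of the 44 genes in RPKM on a log axis, with 1 point per library, a black line at the median of 16 and the genes ordered by it (values below 0.02 are drawn at 0.02). The order runs from Ifi27l2a at a median of 277 RPKM to Ifi44 at 1.30 RPKM, and the 7 genes with a library at 0 counts have points at the lower edge.

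Few of the genes were driven by 1 or 2 libraries. The highest library was at least 4 times the median of the 16 for 3 genes, Ube2l6 (12.5 times), which encodes the conjugating enzyme for ISG15, Ifi44 (6.67 times) and Xaf1 (4.77 times), a partner of the apoptosis inhibitor XIAP, and the highest library of all 3 was CD4+ Sirt2-/- replicate 4. Over the other 13 libraries the largest ratio for any gene was 2.47, for Mx1. In that library 15 of the 44 genes were highest and 21 lowest of their group, against 68.9% of all tested genes for which it was lowest.

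**Figure D2:**
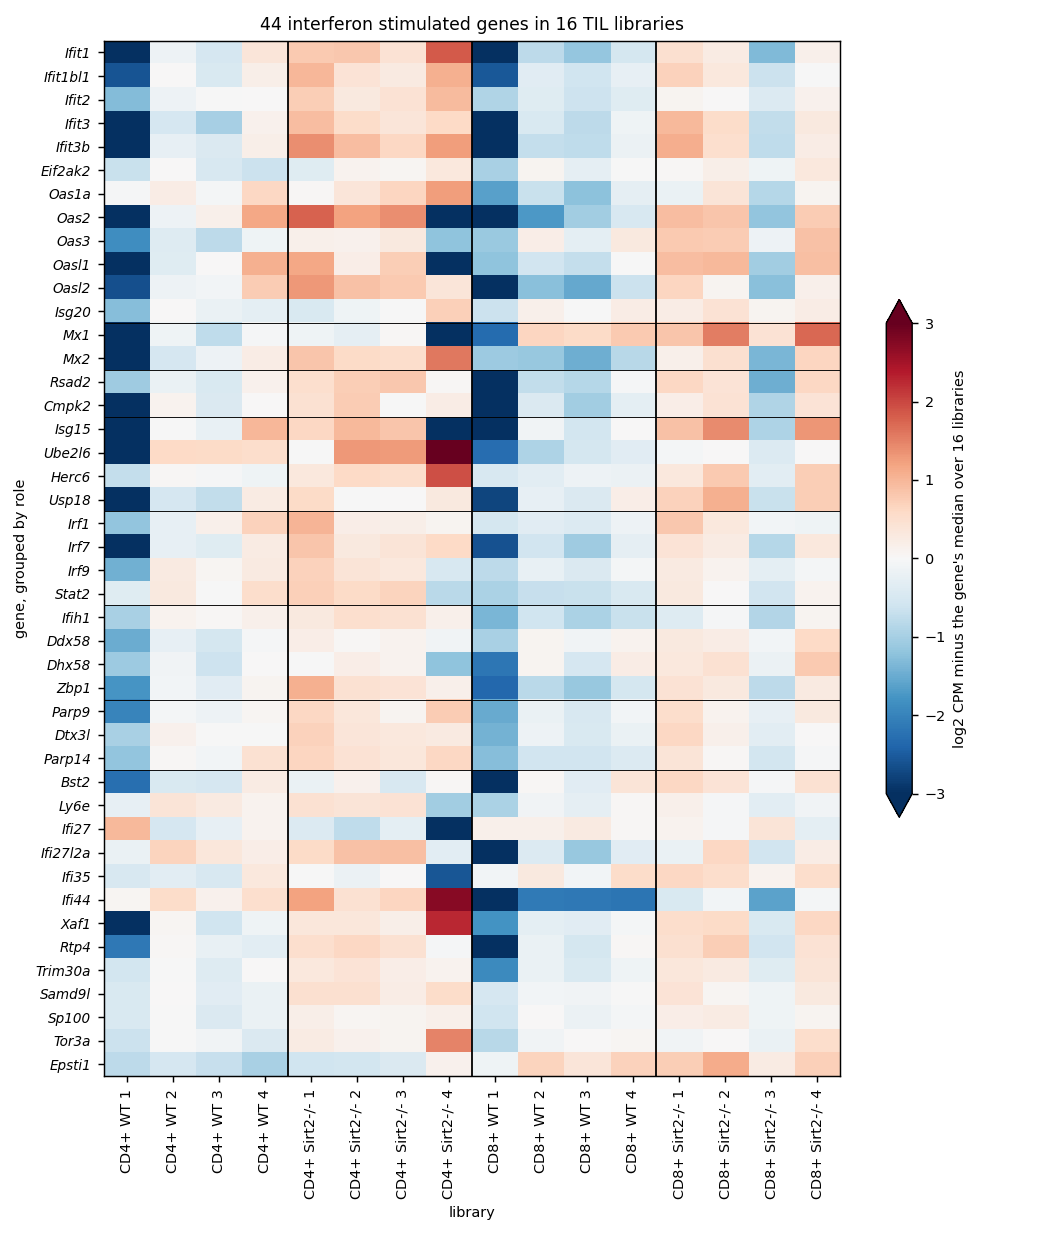
Each square is the log2 CPM of a gene in a library minus that gene's median over the 16 libraries, with blue below and red above it, genes grouped by role and libraries by group. The columns of CD4+ WT replicate 1 and CD8+ WT replicate 1 are blue for nearly all genes, and CD4+ Sirt2-/- replicate 4 is dark red for Ube2l6, Ifi44 and Xaf1 and dark blue for Oas2, Isg15 and Ifi27.

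The genes of the set varied together from library to library. CD8+ WT replicate 1 was lowest of its group for 42 of the 44 genes, where it was lowest for 48.5% of all genes tested, and CD4+ WT replicate 1 was lowest for 41, where it was lowest for 48.4%. CD8+ Sirt2-/- replicate 3, which had 20036 genes detected, was lowest for 42 of 44, against 24.7% of all genes. At the other end, CD8+ WT replicate 4 was highest of its group for 37 genes (22% of all genes) and CD4+ WT replicate 4 for 28 (27.4%). The summed level of the 44 genes was 8163, 7475, 4731 and 7142 CPM in CD8+ Sirt2-/- replicates 1 to 4, and 2625, 5248, 4524 and 5660 CPM in CD8+ WT. In CD4+ Sirt2-/- it was 8802, 7645, 7327 and 7904 CPM and in CD4+ WT 2918, 5937, 5148 and 6357 CPM. Thus the 4 CD4+ Sirt2-/- libraries all lay above the 4 CD4+ WT ones, and 3 of 4 CD8+ Sirt2-/- libraries lay above every CD8+ WT library.

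**Figure D3:**
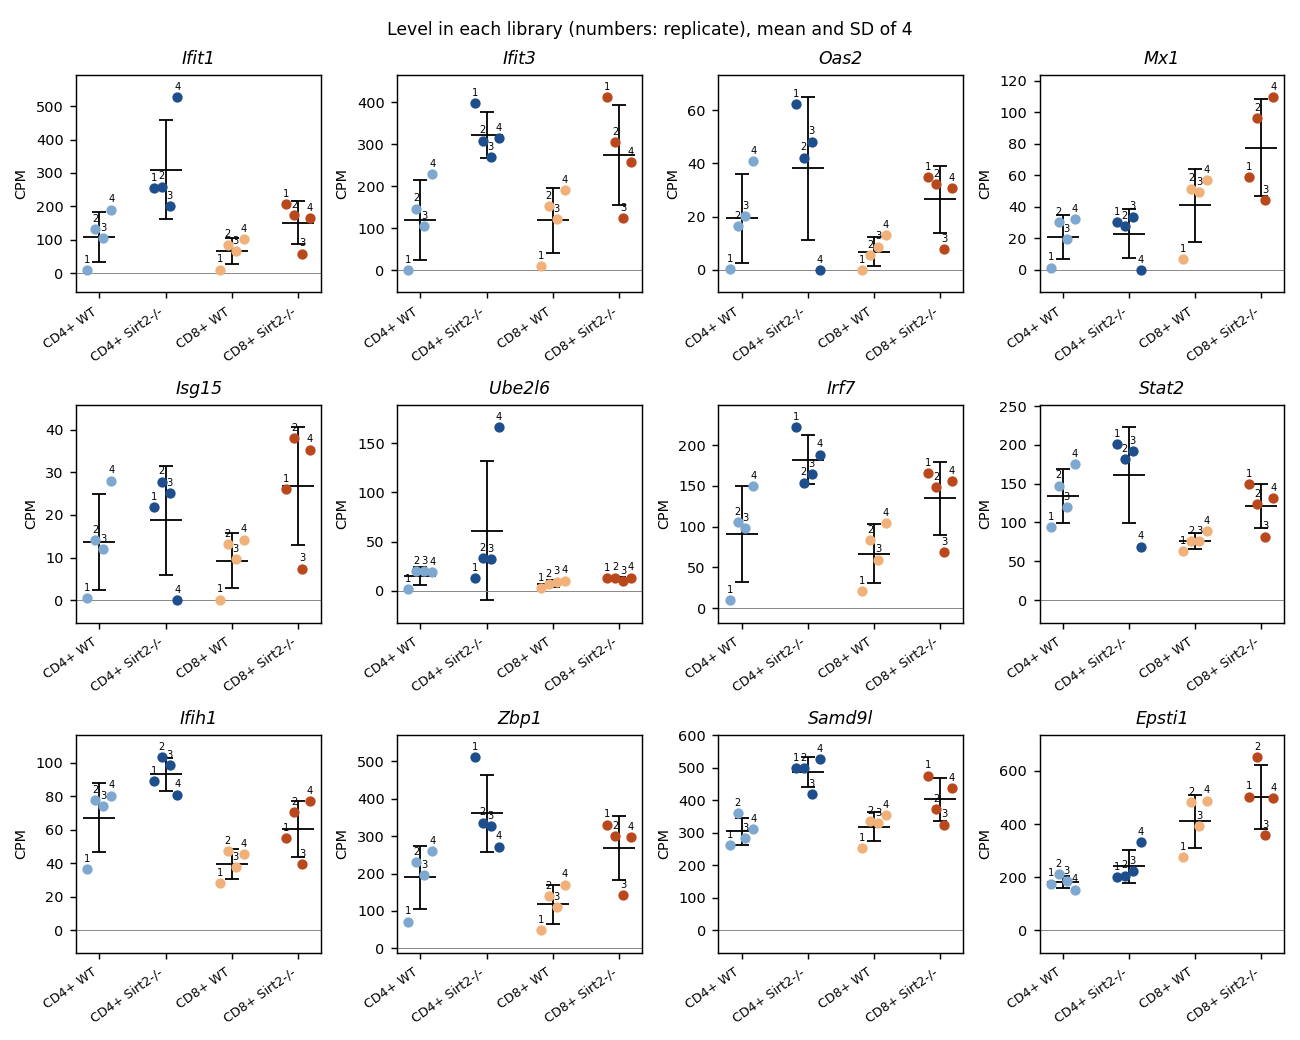
CPM of 12 genes in each library, numbered by replicate, with the mean and SD of the 4 libraries of each group. Replicate 1 is the lowest WT library in nearly every panel and replicate 3 the lowest CD8+ Sirt2-/- library, while CD4+ Sirt2-/- replicate 4 stands at 166 CPM for Ube2l6 and at 0 for Isg15.

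Between genotypes, no single gene of the set passed the test after adjustment, while nearly all had a higher mean in Sirt2-/- TILs. In CD8+ TILs edgeR's quasi-likelihood test called 0 of the 44 genes, and 1 of the 15302 genes tested (0.00654%). A positive log2 fold change was estimated for 43 of the 44, against 51.9% of all genes, and the median of the 44 was 0.74 against 0.01 for all genes. Log2 fold changes are given ± SE, with 4 libraries in each group, and are positive where Sirt2-/- TILs were higher. An unadjusted p below 0.05 was reached by 22 of the 44, all higher in Sirt2-/-, against 3.78% of all genes in either direction. DESeq2 called 0 (0.183% of all genes) with 21 at an unadjusted p below 0.05 (4.91%), and limma-voom 0 (0.0261%) with 24 (6.07%). Every gene of the set had an adjusted p of 0.986 in edgeR. At least 3 of the 4 Sirt2-/- libraries lay above every WT library for 38 of the 44 genes, against 7.59% of all genes, a count chosen after the values were seen, and all 4 did so for Irf1 and Ifi44 (1.74% of all genes). Without CD8+ WT replicate 1 the median was 0.56, and 15 genes had an unadjusted p below 0.05 (4.18% of all genes), with none called (0.0439% of all genes).

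In CD4+ TILs edgeR likewise called 0 of the 44 genes, and 0 of the 15070 tested (0.0%). The deleted gene Sirt2 was not called in this fit either, although its groups did not overlap. The absence of calls here thus says little about the 44. The log2 fold change was positive for 42 of the 44, against 42.0% of all genes, with a median of 0.60 against −0.11 for all. An unadjusted p below 0.05 was reached by 10, all higher in Sirt2-/-, against 1.26% of all genes. DESeq2 called 0 (0.0464% of all genes) with 13 at an unadjusted p below 0.05 (2.08%), and limma-voom 0 (0.0265%) with 29 (7.36%). The adjusted p in edgeR was 1.0 for each gene. All 4 Sirt2-/- libraries lay above all 4 WT libraries for 17 of the 44 genes, against 1.31% of all genes: the 5 Ifit genes, Mx2, Herc6, Irf7, Ifih1, Zbp1, Parp9, Dtx3l, Xaf1, Trim30a, Samd9l, Sp100 and Tor3a. At least 3 of 4 did so for 29 of the 44 (6.82% of all genes). Sirt2-/- replicate 4 was lowest of its group for 68.9% of all genes tested, against 21 of the 44. This limits how many of all genes could separate upward in all 4 libraries. Without CD4+ WT replicate 1 and CD4+ Sirt2-/- replicate 4 the median of the 44 was 0.42, against −0.0016 for all genes. In these libraries 26 of the 44 had an unadjusted p below 0.05 (4.35% of all genes), with none called (0.0374%). The smallest adjusted p among the 44 was then 0.11. In both cell types the RNA-seq of a bulk population cannot tell a larger share of cells with the response from more RNA per cell.

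**Figure D4:**
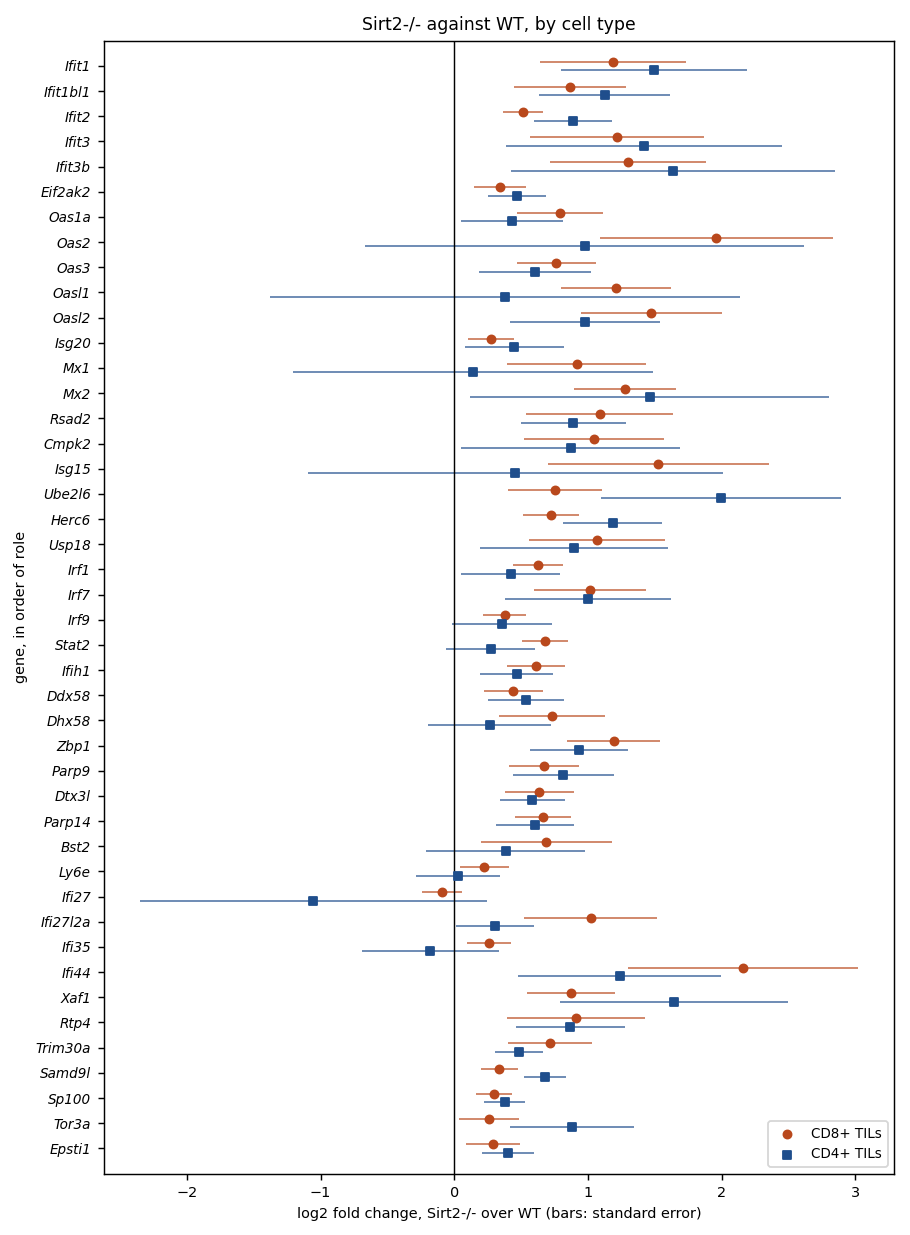
Log2 fold change of Sirt2-/- over WT for each gene (x axis), with circles for CD8+ and squares for CD4+ TILs and bars of 1 standard error. All points but those of Ifi27 in both cell types and Ifi35 in CD4+ TILs lie right of 0, and no point passed an adjusted p of 0.05.

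Macrophage and monocyte markers also had positive log2 fold changes in Sirt2-/- TILs of both cell types, and so did the stromal and endothelial genes tested. Other marker lists did not all do so. The summed level of 10 macrophage and monocyte genes was 8.47 to 39.4 CPM in CD8+ Sirt2-/- and 2.24 to 8.86 CPM in CD8+ WT libraries, 6.47 to 34.9 CPM in CD4+ Sirt2-/- and 1.497 to 15.8 CPM in CD4+ WT. Of these, 9 could be tested in CD8+ TILs and all 9 had a positive log2 fold change, against 51.9% of all genes. An unadjusted p below 0.05 was reached by 4 of them, against 3.78% of all genes, and none was called. In CD4+ TILs 6 were tested and all 6 were positive, against 42.0% of all genes, with none at an unadjusted p below 0.05 (1.26% of all genes). Within the CD8+ Sirt2-/- group the lowest macrophage sum, 8.47 CPM, was in replicate 3, and in both WT groups it was in replicate 1, the same libraries that were lowest for most interferon stimulated genes. In CD4+ Sirt2-/- TILs the lowest, 6.47 CPM, was in replicate 1, which had the highest summed level of the 44 genes in its group. The part of these cells in the interferon values was not tested. Of 4 plasmacytoid dendritic cell genes, Siglech was at 0 in 15 of 16 libraries, and the summed level, most of it Pacsin1 in every library, was 38.8 to 70.2 CPM in CD8+ Sirt2-/- and 59.8 to 88.6 CPM in CD8+ WT, and 31.96 to 76.7 CPM against 32.2 to 39.2 CPM in CD4+ TILs. Neutrophil genes summed to at most 0.530 CPM. The sum of 6 stromal and endothelial genes was 40.5 to 108 CPM in CD8+ Sirt2-/-, of which Pecam1 gave 39.5 to 78.4 CPM, and 36.2 to 48.3 CPM in CD8+ WT, and 64.5 to 181 CPM against 95.0 to 116 CPM in CD4+ TILs. Melanoma genes summed to 7.897 to 16.1 CPM in CD8+ Sirt2-/- and 3.83 to 11.7 CPM in CD8+ WT, and to 10.2 to 81.5 CPM against 5.4997 to 103 CPM in CD4+ TILs. Both CD4+ maxima were in libraries with few genes detected, 81.5 CPM in Sirt2-/- replicate 4 and 103 CPM in WT replicate 1. The other CD4+ libraries had at most 13.8 CPM. In CD8+ WT the highest, 11.7 CPM, was in replicate 1. The part of tumor RNA in the interferon values was not tested. B cell genes summed to 2.23 to 5.63 CPM against 1.54 to 3.21 CPM in CD8+ and to 0.0179 to 4.47 CPM against 2.77 to 12.5 CPM in CD4+ TILs. The 12.5 CPM was in CD4+ WT replicate 1. For NK cell genes the sums were 11.3 to 26.98 CPM against 13.98 to 20.6 CPM in CD8+, and 0.0179 to 14.6 CPM against 0 to 10.3 CPM in CD4+ TILs. The 3 stromal and endothelial genes tested were positive in both cell types, with median log2 fold changes of 2.08 in CD8+ and 1.30 in CD4+ TILs. In CD8+ TILs 2 of these had an unadjusted p below 0.05, in CD4+ TILs none, and none was called. Positive estimates were also found for all 4 B cell, 3 melanoma and 6 T cell genes tested in CD8+ TILs. In CD4+ TILs these were 1 of 3, 1 of 6 and 2 of 6.

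The 12 genes whose products bind or degrade RNA had positive log2 fold changes in both cell types, with medians of 1.03 in CD8+ and 0.93 in CD4+ TILs. An unadjusted p below 0.05 was reached by 7 in CD8+ and by 2 in CD4+ TILs. Ifit1, which binds viral RNA by its cap structure, had 208, 174, 58.9 and 166 CPM in CD8+ Sirt2-/- replicates 1 to 4 and 11.4, 85.96, 66.4 and 103 CPM in CD8+ WT. It had 254, 259, 200.2 and 527 CPM in CD4+ Sirt2-/- and 10.1, 132, 105 and 190.2 CPM in CD4+ WT. The CD4+ groups did not overlap, while CD8+ Sirt2-/- replicate 3 lay within the WT range, and the log2 fold changes were 1.19 ± 0.55 in CD8+ and 1.49 ± 0.70 in CD4+ TILs. Leaving out the libraries with few genes detected brought these to 0.84 and 0.75. Ifit2, of the same family, had 136, 130.3, 96.8 and 141 CPM in CD8+ Sirt2-/- and 69.2, 99.8, 83.4 and 101 CPM in CD8+ WT. In CD4+ TILs its values were 215, 157, 173 and 247 CPM in Sirt2-/- and 52.6, 115, 128 and 129.8 CPM in WT. Its spread was small beside its differences of 0.51 ± 0.15 and 0.89 ± 0.29, and it was 1 of the 5 genes with the smallest unadjusted p in both cell types.

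The other 3 Ifit genes did not overlap in CD4+ TILs either. Ifit3 had 398, 308, 269 and 314 CPM in CD4+ Sirt2-/- and 0.665, 146, 105 and 229 CPM in CD4+ WT. Ifit3b, a close copy with which Ifit3 shares 31.65% of its 100-base windows, had 212, 154, 123 and 191 CPM in CD4+ Sirt2-/- and 0, 68.1, 59.2 and 90.6 CPM in CD4+ WT. Reads from the shared stretches cannot be assigned to one copy, so the pair is best read together, and in both genes CD4+ WT replicate 1 was far below the other WT libraries. The 0 counts of Ifit3b there allow a level of up to 3 counts in a library of 28000949, and such limits cover counting error only. Ifit1bl1 had 256, 169.6, 153 and 268 CPM in CD4+ Sirt2-/- and 21.1, 129, 92.5 and 144 CPM in CD4+ WT. In CD8+ TILs Ifit3 had 412, 305, 125 and 258 CPM in Sirt2-/- and 9.47, 152, 121 and 191 CPM in WT libraries. The CD8+ values of Ifit3b were 172, 115, 47.4 and 93.9 CPM in Sirt2-/- and 5.96, 49.1, 47.1 and 71.6 CPM in WT. Those of Ifit1bl1 were 207, 158, 81.6 and 126 CPM and 21.99, 101, 84.5 and 108 CPM. In each of these genes replicate 3 was the lowest CD8+ Sirt2-/- library and lay within the WT range, and the other 3 lay above it. In CD8+ TILs the log2 fold changes were 1.22 ± 0.65 for Ifit3, 1.30 ± 0.58 for Ifit3b and 0.86 ± 0.42 for Ifit1bl1. The corresponding values in CD4+ TILs were 1.42 ± 1.03, 1.64 ± 1.21 and 1.13 ± 0.49.

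Among the oligoadenylate synthetases, which make the messenger that activates RNase L, Oas2 varied most. It had 34.8, 32.3, 7.94 and 30.8 CPM in CD8+ Sirt2-/- and 0.0303, 5.498, 8.75 and 12.95 CPM in CD8+ WT (log2 fold change 1.96 ± 0.87). Its values were 62.2, 42.1, 48.2 and 0 CPM in CD4+ Sirt2-/- and 0.333, 16.3, 20.3 and 40.9 CPM in CD4+ WT (0.98 ± 1.64). CD8+ Sirt2-/- replicate 3 lay with the WT libraries, and CD4+ Sirt2-/- replicate 4 had no read of the gene although 3 libraries of that group exceeded every WT library. Oas1a, which shares 40.87% of its windows with Oas1g, had 22.1, 33.3, 14 and 26.7 CPM in CD8+ Sirt2-/- and 8.11, 15.9, 10.7 and 20.9 CPM in CD8+ WT. In CD4+ TILs it had 26.02, 32.8, 39.8 and 60.2 CPM in Sirt2-/- and 24.7, 29.5, 24.4 and 39.1 CPM in WT libraries. Its genotype groups overlapped in both cell types, with log2 fold changes of 0.79 ± 0.32 and 0.43 ± 0.38. The log2 fold changes of Oas3, Oasl1, Oasl2, the kinase gene Eif2ak2 and the exonuclease gene Isg20 lay between 0.28 and 1.48 in CD8+ and between 0.38 and 0.98 in CD4+ TILs.

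Functional Mx genes encode GTPases that block viral ribonucleoproteins. The gene annotation lists Mx2 as a polymorphic pseudogene, and whether either transcript yields a working protein in these mice was not tested. Mx1 had 58.9, 96.5, 44.5 and 109.7 CPM in CD8+ Sirt2-/- and 6.69, 51.6, 49.2 and 57.05 CPM in CD8+ WT (0.92 ± 0.52 on the log2 scale). In CD4+ TILs it had 30.4, 27.6, 33.9 and 0.0179 CPM in Sirt2-/- and 1.56, 30.4, 19.5 and 32.4 CPM in WT libraries (0.14 ± 1.35). Apart from the libraries with few genes detected, the CD4+ groups were nearly level, and CD8+ replicate 3 of Sirt2-/- was again below the WT libraries other than replicate 1. Mx2 had 11.7, 14.6, 4.03 and 16.5 CPM in CD8+ Sirt2-/- and 4.901, 4.73, 3.804 and 5.93 CPM in CD8+ WT, with 18.9, 15.6, 15.1 and 31.8 CPM in CD4+ Sirt2-/- and 0, 7.43, 9.47 and 12.4 CPM in CD4+ WT. Its log2 fold changes were 1.28 ± 0.38 and 1.46 ± 1.35, and the CD4+ groups did not overlap. Rsad2, which encodes viperin, an enzyme that makes a chain-terminating nucleotide, and its neighbor Cmpk2, a nucleotide kinase, had log2 fold changes of 1.09 and 1.05 in CD8+ and of 0.89 and 0.87 in CD4+ TILs.

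In the ISG15 system, Isg15 is the modifier, Ube2l6 and Herc6 the enzymes that attach it, and Usp18 the protease that removes it and dampens IFNAR2 signaling. Their median log2 fold changes were 0.91 in CD8+ and 1.04 in CD4+ TILs. Isg15 had 25.99, 38.1, 7.396 and 35.3 CPM in CD8+ Sirt2-/- and 0.151, 13.1, 9.65 and 14.2 CPM in CD8+ WT. It had 21.9, 27.8, 25.2 and 0 CPM in CD4+ Sirt2-/- and 0.565, 14.1, 12.03 and 28.1 CPM in CD4+ WT. Replicates 1, 2 and 4 of CD8+ Sirt2-/- were above all WT libraries, but the log2 fold change of 1.53 ± 0.83 came with a far larger SE than that of Ifit2, and in CD4+ TILs it was 0.46 ± 1.55. Herc6 had 73.1, 102, 47.4 and 97.1 CPM in CD8+ Sirt2-/- and 41.7, 47.4, 52.8 and 51.5 CPM in CD8+ WT. Values in CD4+ TILs were 73.1, 88.8, 84.9 and 225 CPM in Sirt2-/- and 35.5, 59.9, 57.3 and 53.7 CPM in WT, so that the CD4+ groups did not overlap and replicate 4 of Sirt2-/- stood far above the rest. Its log2 fold changes were 0.72 ± 0.21 and 1.18 ± 0.37 (0.67 and 0.53 in the libraries with more genes detected).

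Ube2l6 had 12.7, 13.4, 9.99 and 13.5 CPM in CD8+ Sirt2-/- and 2.66, 7.005, 9.24 and 10.5 CPM in CD8+ WT. In CD4+ Sirt2-/- it had 13.2, 32.9, 32.3 and 166 CPM and in CD4+ WT 1.46, 20.1, 19.6 and 19.03 CPM. Sirt2-/- replicate 4 was far above and WT replicate 1 far below the other CD4+ libraries, and the log2 fold change of 1.997 ± 0.90 was 0.42 without these 2. In CD8+ TILs it was 0.75 ± 0.35, and for Usp18 the values were 1.07 ± 0.51 in CD8+ and 0.90 ± 0.70 in CD4+ TILs.

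All 4 transcription factor genes of the set had positive log2 fold changes in both cell types, with medians of 0.65 in CD8+ and 0.39 in CD4+ TILs. An unadjusted p below 0.05 was reached by all 4 in CD8+ (3.78% of all genes) and by none in CD4+ TILs (1.26%). None of the 4 reached it for the difference of the genotype effect between cell types. Stat2, the subunit of ISGF3 that carries its activation domain, had 149, 123, 81.9 and 131 CPM in CD8+ Sirt2-/- and 63.3, 75.7, 76.2 and 88.7 CPM in CD8+ WT (0.68 ± 0.17 on the log2 scale). It had 201, 182, 192 and 69.01 CPM in CD4+ Sirt2-/- and 93.96, 148, 119 and 176 CPM in CD4+ WT (0.27 ± 0.34). In CD8+ TILs 3 of 4 Sirt2-/- libraries lay above the WT range, and in CD4+ TILs replicate 4 of Sirt2-/- lay below every WT library while the other 3 lay above. Irf1, a factor that also responds to IFN-γ, had 375, 269, 204 and 199 CPM in CD8+ Sirt2-/- and 149, 170.4, 164 and 195 CPM in CD8+ WT, without overlap. Its values in CD4+ TILs were 439.5, 246, 244 and 228 CPM in Sirt2-/- and 94.9, 183, 240.0 and 347 CPM in WT, which overlapped, and the log2 fold changes were 0.63 ± 0.19 and 0.42 ± 0.37. Irf7, the factor that amplifies IFN-α transcription, had 166, 148, 68.8 and 156 CPM in CD8+ Sirt2-/- and 20.4, 83.4, 59.6 and 104 CPM in CD8+ WT. Its CD4+ values, 222, 154, 164 and 188 CPM in Sirt2-/- and 9.71, 105, 97.99 and 149 CPM in WT, did not overlap. The log2 fold changes of Irf7 were 1.01 ± 0.42 and 1.002 ± 0.62, and those of Irf9 0.38 and 0.36.

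The 4 genes for sensors of foreign nucleic acid had median log2 fold changes of 0.67 in CD8+ and 0.50 in CD4+ TILs, with 2 and 1 at an unadjusted p below 0.05. Ifih1, which encodes the RNA sensor MDA5, had 55.01, 70.6, 39.4 and 76.96 CPM in CD8+ Sirt2-/- and 28.1, 47.5, 37.6 and 45.3 CPM in CD8+ WT. In CD4+ TILs it had 89.2, 103, 98.8 and 81.02 CPM in Sirt2-/- and 36.7, 77.8, 74.3 and 80.4 CPM in WT. The log2 fold changes were 0.61 ± 0.22 and 0.47 ± 0.27, and in CD4+ TILs the lowest Sirt2-/- library exceeded the highest WT library by less than 1 CPM. Zbp1, a sensor of Z-form nucleic acid linked to necroptosis, had 331, 299.7, 142 and 298 CPM in CD8+ Sirt2-/- and 48.2, 139.6, 111 and 170.5 CPM in CD8+ WT. Its CD4+ values were 510.2, 336, 326 and 272 CPM in Sirt2-/- and 71.6, 232, 195 and 259.9 CPM in WT, without overlap, and its log2 fold changes 1.19 ± 0.35 and 0.93 ± 0.37. Zbp1 was among the 5 genes with the smallest unadjusted p in both cell types. Ddx58 and Dhx58, which encode RIG-I and LGP2, had log2 fold changes of 0.44 and 0.73 in CD8+ and of 0.54 and 0.26 in CD4+ TILs.

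Parp9 and Dtx3l encode the 2 parts of 1 complex and are read from neighboring genes that overlap on opposite strands over 9.4% and 8.0% of their exonic bases, where reads can be told apart only if the counting used strand, which is not given in the sources used here. Parp9 had 314, 259, 216 and 347 CPM in CD4+ Sirt2-/- and 51.6, 196, 183 and 214 CPM in CD4+ WT. Dtx3l had 858, 677, 656 and 640.4 CPM in CD4+ Sirt2-/- and 269, 574, 525 and 523 CPM in CD4+ WT. Neither gene overlapped between the CD4+ groups, and WT replicate 1 was far below its group in both. In CD8+ TILs Parp9 had 296, 221, 173 and 252 CPM in Sirt2-/- and 72, 179, 146 and 194 CPM in WT, and Dtx3l had 810.1, 587, 424 and 531 CPM and 199, 472, 384 and 461 CPM. Replicate 3 of Sirt2-/- lay among the WT libraries there, and the log2 fold changes were 0.67 ± 0.26 for Parp9, 0.64 ± 0.26 for Dtx3l and 0.66 ± 0.21 for Parp14, an ADP-ribosyltransferase. Parp14 had 554, 432, 291 and 417 CPM in CD8+ Sirt2-/- and 176, 287, 287 and 320.2 CPM in CD8+ WT, and 665, 572, 539 and 656 and 188, 432, 401 and 579 CPM in the corresponding CD4+ groups. In CD4+ TILs the log2 fold changes of the 3 genes lay between 0.58 and 0.82.

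The 13 membrane-associated and other genes had medians of 0.34 in CD8+ and 0.40 in CD4+ TILs and held all the negative estimates of the set. Samd9l, a restriction factor, had 499.8, 498, 419 and 526 CPM in CD4+ Sirt2-/- and 262, 361, 284 and 311 CPM in CD4+ WT (0.68 ± 0.16 on the log2 scale), the smallest unadjusted p of the set in CD4+ TILs. In CD8+ TILs its values of 476, 373, 325 and 438 CPM in Sirt2-/- and 253, 337, 330.4 and 354 CPM in WT differed less (0.34 ± 0.14). The gene was abundant in every library, with at least 253 CPM, and in the libraries with more genes detected the CD4+ value was 0.57. Trim30a, a TRIM protein gene, had 316, 336, 290.2 and 270.5 CPM in CD4+ Sirt2-/- and 173, 251, 192 and 253 CPM in CD4+ WT (0.49 ± 0.18). Sp100, a nuclear body protein, had 643, 593, 601 and 628 CPM and 416, 565, 424 and 500.2 CPM in these groups (0.38 ± 0.15). Both separated the CD4+ genotypes by narrow gaps. In CD8+ TILs Trim30a had 319.5, 305, 196 and 331 CPM in Sirt2-/- and 66.8, 219, 185 and 231 CPM in WT (0.72 ± 0.32). Sp100 had 657, 681, 524 and 608 CPM and 377, 575, 508 and 552 CPM there (0.30 ± 0.14). Replicate 3 was again the lowest Sirt2-/- library and lay below the highest WT libraries.

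Xaf1 had 68.3, 68.8, 61.7 and 259.6 CPM in CD4+ Sirt2-/- and 2.03, 56.95, 36.2 and 49.7 CPM in CD4+ WT, and Tor3a, an ATPase of the endoplasmic reticulum, had 30.1, 27.5, 26.6 and 70.96 CPM and 16.1, 25.2, 23.6 and 18.8 CPM. In both, replicate 4 of Sirt2-/- was far above its group, and the log2 fold changes of 1.64 ± 0.86 and 0.88 ± 0.46 were 0.48 and 0.32 without the libraries of few genes. In CD8+ TILs Xaf1 had 78.5, 80.8, 39.9 and 83.98 CPM in Sirt2-/- and 15.7, 44.4, 42.8 and 51.9 CPM in WT (0.87 ± 0.33), and Tor3a had 23.5, 25.3, 21.9 and 36.3 CPM and 14.1, 23.4, 25.6 and 26.3 CPM (0.26 ± 0.23). Neither was separated between the CD8+ genotypes. Ifi44, an interferon-induced gene of little known function, had 5.76, 7.58, 2.59 and 7.59 CPM in CD8+ Sirt2-/- and 0, 1.797, 1.77 and 1.69 CPM in CD8+ WT, low in all but without overlap (2.16 ± 0.86), and in CD4+ TILs it had 18.5, 11.01, 12.4 and 53.2 CPM in Sirt2-/- and 8.35, 11.8, 8.76 and 11.2 CPM in WT, with overlap (1.24 ± 0.76). Bst2, which encodes tetherin, had 44.5, 38.5, 28.5 and 40.2 CPM in CD8+ Sirt2-/- and 3.54, 29.98, 22.8 and 37.8 CPM in CD8+ WT. It had 25.2, 32, 20.8 and 29.6 and 6.05, 21.1, 20.5 and 34.4 CPM in CD4+ Sirt2-/- and WT, and overlapped in both cell types (0.69 ± 0.49 and 0.39 ± 0.59). Ly6e had 490.3, 432, 356 and 411 CPM in CD8+ Sirt2-/- and 228, 406, 364 and 448 CPM in CD8+ WT, and 606, 572, 591 and 213 and 372, 576, 530.1 and 475 CPM in the CD4+ groups. With log2 fold changes of 0.23 ± 0.18 and 0.03 ± 0.31 it was among the most abundant genes of the set and among those that differed least. Negative estimates were those of Ifi27, −0.09 in CD8+ and −1.06 in CD4+ TILs, where Sirt2-/- replicate 4 had 0 counts, and of Ifi35 in CD4+ TILs (−0.18).

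The genes with and without the pair of GAAA in a promoter did not separate by size of the genotype difference in 1 order. In CD8+ TILs the median log2 fold change was 0.78 over the 14 genes with a match and 0.64 over the 17 without, and in CD4+ TILs 0.51 and 0.68.

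Between cell types, most genes of the set had a lower mean in CD8+ than in CD4+ TILs, and few passed the test with all libraries. In WT mice edgeR called 3 of the 44 genes, against 11.9% of all 14892 genes tested. Epsti1, whose product was first described in epithelial and stromal interaction, rose in CD8+ TILs, while Stat2 and Oas1a were lower in CD8+ TILs. Epsti1 had 277, 483, 393 and 489 CPM in CD8+ WT and 176, 212, 187 and 154 CPM in CD4+ WT libraries, without overlap (log2 fold change 1.10 ± 0.18; adjusted p = 0.0028). For Stat2 and Oas1a, given per library above, the log2 fold changes were −0.90 ± 0.20 (adjusted p = 0.014) and −1.15 ± 0.32 (adjusted p = 0.039), and the groups did not overlap either. A positive log2 fold change was found for 12 of the 44, against 48.6% of all genes, and the median was −0.38 against −0.02. Leaving out each library gave medians of −0.53 to −0.08. The value nearest 0 was that without CD8+ WT replicate 1, with 18 of the 44 positive. The largest negative estimate was that of Ifi44, with 0, 1.797, 1.77 and 1.69 CPM in CD8+ WT and 8.35, 11.8, 8.76 and 11.2 CPM in CD4+ WT (−3.002 ± 0.97; adjusted p = 0.073). Ifih1 came before Ifi44 in order of p (−0.84 ± 0.27, adjusted p = 0.068). Ifi27l2a had 12.3, 95.95, 57.9 and 101 CPM in CD8+ WT and 112, 203, 161 and 145 CPM in CD4+ WT. Groups did not overlap for Epsti1, higher in CD8+ (12.6% of all genes), and for Stat2, Oas1a, Ifi44 and Ifi27l2a, lower in CD8+ (10% of all genes).

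In Sirt2-/- mice 1 of the 44 was called, against 2.24% of 15787 genes. Epsti1 rose in CD8+ TILs there too, with 504, 651, 358 and 497 CPM in CD8+ and 202, 206, 223 and 332 CPM in CD4+ libraries (1.05 ± 0.22; adjusted p = 0.049), close to the threshold. Its adjusted p was 0.055 with the size factors of DESeq2 and 0.068 with upper quartile scaling. The median of the 44 was −0.28 against 0.16 for all genes, with 13 positive against 58.4% of all. Leaving out each library gave medians of −0.42 to −0.17. Groups did not overlap for Mx1, Ifi35 and Epsti1, higher in CD8+ (16% of all genes), and for Ifih1, Ifi44 and Ifit2, lower in CD8+ (6.22%). The other genes with the smallest unadjusted p were Ifit2 (−0.66 ± 0.18), Ube2l6 (−2.30 ± 0.72), Ifih1 (−0.64 ± 0.22) and Parp14 (−0.53 ± 0.19).

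The counts of calls between cell types depended on the tool and on the libraries with few genes detected. DESeq2 called 5 of the 44 in WT mice (17.7% of all genes) and 4 in Sirt2-/- mice (8.48%), and limma-voom 19 (36.8%) and 14 (28.3%). Without CD4+ WT replicate 1 and CD8+ WT replicate 1, 17 of the 44 genes were called in WT mice, 2 higher in CD8+ TILs (Mx1 and Epsti1) and 15 lower, against 28% of all genes called and 13.1% called lower. Without CD4+ Sirt2-/- replicate 4, 11 were called in Sirt2-/- mice, 4 higher (Mx1, Ifi35, Epsti1 and Isg20) and 7 lower (Ifit2, Ube2l6, Irf9, Stat2, Ifih1, Ly6e and Ifi44), against 25.4% of all genes called and 11.6% called lower. Leaving out CD4+ WT replicate 1 alone gave 10 calls in WT mice (17.5% of all genes), and leaving out CD4+ WT replicate 4 (9.15%) or CD8+ WT replicate 2 (6.78%) gave 1. In Sirt2-/- mice leaving out any library other than CD4+ replicate 4 gave 0, against 0.679% to 1.42% of all genes.

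**Figure D5:**
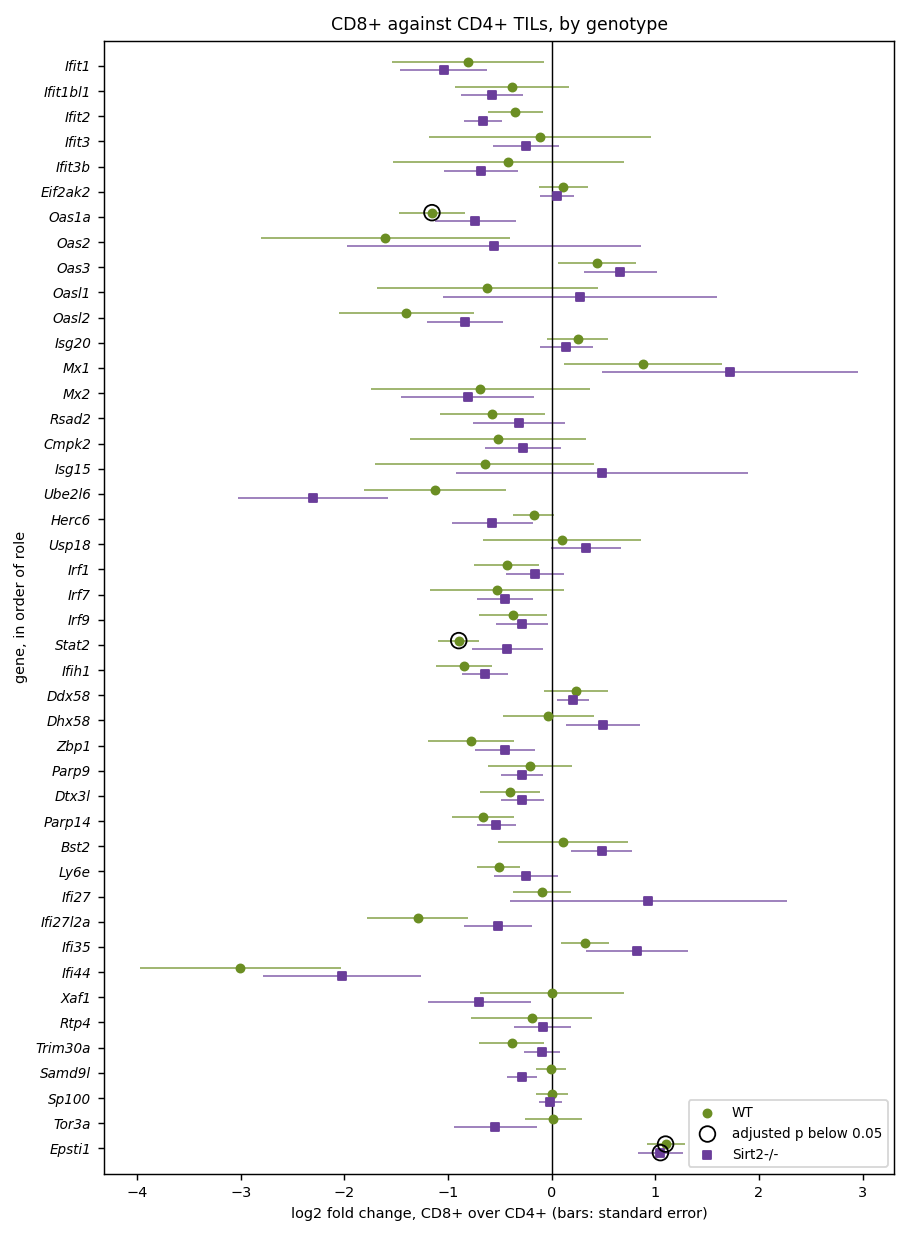
Log2 fold change of CD8+ over CD4+ TILs for each gene (x axis), with circles for WT and squares for Sirt2-/- mice, bars of 1 standard error and black rings for an adjusted p below 0.05. Epsti1 is ringed in both genotypes at 1.10 and 1.05, Stat2 and Oas1a in WT mice alone, and most other points lie left of 0.

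The genotype difference was then compared between cell types. No gene of the set was called by edgeR (0.0% of 17270 genes tested), none had an unadjusted p below 0.05, against 1.98% of all genes, and neither DESeq2 (0.0116%) nor limma-voom (0.0%) called any. At an unadjusted p below 0.05 DESeq2 found 0 (2.88% of all genes) and limma-voom 2, Ifi44 and Samd9l (4.51%), and edgeR without the libraries of few genes found 1, Ifi44 (3.69%). The median of the 44 differences, CD8+ minus CD4+, was 0.10, against 0.14 for all genes, with 27 of 44 positive against 58.2% of all. The genes with the smallest unadjusted p were Samd9l (−0.34 ± 0.21), Ube2l6 (−1.27 ± 1.05), Tor3a (−0.63 ± 0.54), Ifit2 (−0.38 ± 0.34) and Ifi27l2a (0.72 ± 0.66). The SEs, of 0.20 for Sp100 to 2.07 for Oas2, leave room for differences of the size of the genotype estimates themselves. The value of Ube2l6 became 0.06 without the libraries of few genes. The groups of the fifth, Ifi27l2a, were 111, 195, 85.5 and 149 CPM in CD8+ Sirt2-/- and 189, 235, 237 and 102 CPM in CD4+ Sirt2-/-, beside the WT values given above.

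The rest of the pathway was read from a second list of 44 genes, which shares no member with the first. Of the ligands, 11 type I and type III interferon genes had 77 counts in all over 16 libraries, 4 of them none, and 8 libraries had none of these counts. Few reads were thus counted for these ligands, in libraries made from the T cells and not from the whole tumor. How much sequence these genes share with each other was not measured, so reads lost to shared stretches are not known. Of the 44 pathway genes 31 could be tested in CD8+ TILs and 30 in CD4+ TILs, and edgeR called none between genotypes. In CD8+ TILs 8 were higher and 1 lower in Sirt2-/- at an unadjusted p below 0.05 (3.78% of all genes), with a median of 0.25 against 0.01 for all genes. In CD4+ TILs 1 was higher (1.26% of all genes), with a median of 0.13 against −0.11. The receptor genes Ifnar1 and Ifnar2 had log2 fold changes of 0.11 ± 0.09 and −0.33 ± 0.13 in CD8+ and of −0.22 ± 0.41 and 0.24 ± 0.38 in CD4+ TILs. For the kinase genes Jak1 and Tyk2 they were −0.07 ± 0.10 and −0.17 ± 0.11, and 0.05 ± 0.17 and −0.15 ± 0.26.

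Of the remaining regulators, Socs1, which inhibits the JAK kinases, had log2 fold changes of 0.46 ± 0.17 in CD8+ and 0.11 ± 0.22 in CD4+ TILs. Ifng, the type II interferon, had 7.26, 9.45, 14.5 and 20.9 CPM in CD8+ Sirt2-/- and 11.01, 7.38, 8.56 and 12.3 CPM in CD8+ WT (0.41 ± 0.32). It was at most 3.403 CPM in CD4+ Sirt2-/- and 4.14 CPM in CD4+ WT libraries, and was higher in CD8+ than in CD4+ WT TILs (1.78 ± 0.47; adjusted p = 0.033). Between cell types in WT mice 2 of 30 pathway genes were called higher in CD8+ TILs, Ifng and the DNA sensor gene Cgas, and 10 lower, against 11.9% of all genes called. The 10 were the IFN-γ receptor genes Ifngr1 (−1.56 ± 0.19; adjusted p = 0.00051) and Ifngr2 (−1.71 ± 0.35), the kinase gene Jak2, the factors Irf2, Irf4 and Irf5, the adaptor and kinase genes Tmem173 and Ikbke, and the negative regulators Socs3 and Samhd1, with values from −0.46 for Irf2 to −2.21 for Irf5. In Sirt2-/- mice 4 of 30 were called, against 2.24% of all genes. Irf8 was higher in CD8+ TILs (1.399 ± 0.19; adjusted p = 0.008), and Ifngr1 (−1.39 ± 0.25), Jak2 (−1.16 ± 0.14) and Irf4 (−1.0 ± 0.20) were lower.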

How the data were processed

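Total RNA of CD4+ and CD8+ TILs was sequenced in 16 libraries, 4 for each genotype and cell type, grouped by the labels. TILs were enriched from digested tumors with a Percoll gradient and CD3ε beads, and how CD4+ and CD8+ cells were then separated for RNA-seq is not given in the sources used here. From 1 ng of RNA the authors made stranded, ribosomal RNA-depleted libraries. The submitters' processing notes name STAR, HTSeq and mm10 without versions or settings. The authors deposited 1 table of raw, whole-number counts of reads per gene, with total counts per library from 28000949 to 62407851.

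Counts were tested in R 4.3.3 with edgeR 4.0.16 (TMM, filterByExpr, robust quasi-likelihood test, two-sided, Benjamini-Hochberg adjustment over all genes tested, threshold 0.05), separately for each comparison of 2 groups. The genotype effects of the cell types were compared over all 16 libraries. The SE of an edgeR log2 fold change was its absolute value divided by the square root of the quasi-likelihood F statistic. CPM were scaled by TMM over 16 libraries (prior count of 2 for log2 values), and RPKM used the exon union of each gene in GENCODE release M21. The model fits by edgeR, DESeq2 and limma-voom were tested on simulated counts for each comparison, and the other steps were not. Alternatives were DESeq2 1.42.0, limma-voom (limma 3.58.1) with sample quality weights, other normalizations and filters, 1 model of all groups, the replicate number as a block, and leaving out each library or the 3 with fewer than 15000 genes detected.

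The genes and lists were chosen with earlier results of these data known. Values in every library were given for genes called in any comparison, for the 5 with the smallest unadjusted p in each, for those whose genotype groups did not overlap, and for Ifit1, Isg15, Mx1, Oas2, Irf7, Stat2, Ifih1, Bst2 and Ly6e whatever their values. Of the other pathway genes, those called were named, and Ifnar1, Ifnar2, Jak1, Tyk2, Ifng and Socs1 in any case. A further gene of this list is not reported here. Promoters for 13 of the 44 genes were not used here.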

Additional observations from a re-analysis of the deposited data

Results flagged for a closer look

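In each group of 4 libraries the gap between the most extreme library and its nearest neighbor was compared with the range of the group by Dixon's test, for the CPM of each of the 44 genes and for the summary values of the set. Of 184 such tests 22 passed the 95% critical value, where chance alone gives about 1 in 20, or 9.2. Because the genes vary together, these are not independent.

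CD4+ Sirt2-/- replicate 4 stood alone in 9 genes. It was far above its group for Ube2l6 (166 CPM), Herc6 (225 CPM), Xaf1 (259.6 CPM), Tor3a (71.0 CPM) and Epsti1 (332 CPM), and far below it for Oas3 (37.3 CPM), Stat2 (69.0 CPM), Ly6e (213 CPM) and Ifi35 (8.45 CPM). CD8+ Sirt2-/- replicate 3 stood alone at the low end for Oas2 (7.94 CPM), Oas3 (77.7 CPM), Oasl1 (4.48 CPM) and Xaf1 (39.9 CPM), and for the median deviation of the 44 genes from their own medians (−0.43 on the log2 scale).

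CD4+ WT replicate 1 was far below its group for Ube2l6 (1.46 CPM), Ifih1 (36.7 CPM) and Dtx3l (269 CPM), and CD8+ WT replicate 1 for Mx1 (6.69 CPM) and Ifi44 (0 CPM). Single high values were those of CD4+ Sirt2-/- replicate 1 for Irf1 (439.5 CPM) and Dtx3l (858 CPM), and of CD4+ WT replicate 4 for Ifi35 (62.4 CPM).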

How the results depend on the processing

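No alternative called a gene of the set between genotypes or for the interaction of genotype and cell type, and the medians of the genotype effects stayed positive in all. Leaving out each library gave medians of 0.56 to 0.98 in CD8+ and of 0.39 to 0.84 in CD4+ TILs. The number of genes of the set with an unadjusted p below 0.05, all higher in Sirt2-/-, then ran from 10 to 33 in CD8+ and from 4 to 14 in CD4+ TILs. With all libraries it was 22 and 10. Of all genes tested, 218 to 458 were higher at that level in CD8+ TILs, of 15595 to 15943. In CD4+ TILs 106 to 237 were, of 15583 to 16154. Between cell types in WT mice, 3 calls became 5 with DESeq2 and without a filter, 19 with limma-voom, 1 in the model of all 16 libraries, 17 without the 2 libraries of few genes, and 1 to 10 on leaving out each library. Of all genes, 941 were called higher and 909 lower of 26628 without a filter, and 379 and 432 of 17270 in the model of all 16 libraries. On leaving out each library 6.58% to 17.5% of all genes were called. In Sirt2-/- mice 1 call became 4 with DESeq2, 14 with limma-voom, 0 with the size factors of DESeq2 and with upper quartile scaling, 11 without the library with few genes detected, and 0 to 11 on leaving out each. Of 15787 genes, 146 were called higher and 215 lower with the size factors of DESeq2, and 136 and 228 with upper quartile scaling. On leaving out each library 0.679% to 25.4% of all genes were called. The median difference of the genotype effects, 0.10, became −0.057 with limma-voom and lay between −0.15 and 0.33 on leaving out each library, and the difference for Ube2l6, −1.27, became 0.064 without the libraries of few genes. For the 5 genes with the smallest unadjusted p in each genotype comparison and in their difference, 290 values under alternatives were compared. Of these, 289 kept their direction and their side of the threshold, and none of the genes was called with all libraries. Other genes did change direction. Negative estimates in CD4+ TILs, 2 with all libraries, numbered 1 to 5 on leaving out each library. The causes were not tested. Few genes detected in 3 libraries limit what can be read from genes with low counts there.

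The replicate numbers of the labels are not tied to mice. Same-numbered CD8+ and CD4+ libraries of WT mice deviated together with correlations of 0.098 to 0.13, each library correlating best with its own number, a hint from the data and not the design. In Sirt2-/- mice the correlations were −0.023 to 0.15, and between genotypes −0.08 to 0.094. With the replicate number as a block, 9 genes (10.9% of all genes) were called between cell types in WT mice and 0 (0.684%) in Sirt2-/- mice, where the call of Epsti1 was lost (edgeR adjusted p = 0.13), 0 in either genotype comparison, and the median difference of the genotype effects was −0.0024.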
